A study of Mus musculus with 28 samples.

Results

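The 10 genes described here encode transcription factors of the oligodendrocyte lineage: Olig1, Olig2, Sox10, Sox8, Sox6, Myrf, Nkx6-2, Nkx2-2, Tcf7l2 and Zfp488. They were chosen by name, not by their values, and each matched 1 of the 55414 genes in the deposited tables. RNA was taken from whole mouse brain, in 4 groups of 7 libraries, around the feeding of cuprizone, a copper chelator that kills oligodendrocytes and strips myelin. The naive group (code CPZ0), the group at the peak of demyelination (CPZ5) and the remyelination group (CPZ6+1) carried TNFR1ff, a floxed allele of the tumour necrosis factor receptor TNFR1, on a C57BL/6 background. The fourth group, called knockout remyelination here (CPZ6+1), carried the same floxed allele with Cx3cr1-CreER, an inducible recombinase driven from a microglial and macrophage promoter, and had received tamoxifen. All 4 groups thus share the floxed allele, and the remyelination group does not carry the Cre. The labels name samples and do not say that each came from a separate animal. No source used here gives sex or age. The p-values thus set group differences against the spread between these samples, which may not be the spread between animals.

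Oligodendrocytes arise from precursor cells that express Olig2 and Sox10, and Sox10 stays on through differentiation, where it switches on Myrf and the myelin genes. Olig1 and Olig2 are basic helix-loop-helix factors, Sox10 and Sox8 are closely related HMG-box factors, and Sox6 holds precursors in the undifferentiated state. Nkx2-2 and Zfp488 act early in differentiation, Tcf7l2 is a nuclear partner of Wnt signalling in newly formed oligodendrocytes, and Myrf and Nkx6-2 act late, during myelin formation. Several are not specific to the lineage in whole brain: Tcf7l2 is also a gene of thalamic neurons, Sox6 of cortical interneurons, and Sox10 of Schwann cells.

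The libraries were 3′ tag libraries of 1522913 to 3137254 counts each. Levels are CPM, a gene's count relative to a library size that was adjusted for composition. A count of 3, the upper limit that a count of 0 allows, was worth between 0.954 and 2.39 CPM depending on the library, and such limits cover counting error only. The most abundant gene took between 1.33% of the counts (knockout remyelination library 1) and 25.5% (naive library 1). Tnfrsf1a, which encodes TNFR1, averaged 13.4 ± 3.07 CPM (SD, n = 7) in naive brain, 27.3 ± 4.89 at demyelination, 23.2 ± 4.47 at remyelination and 22.1 ± 4.22 in knockout remyelination. These tags come from the end of the transcript, which the deletion may leave in place, so the levels do not check it.

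Of the 10 factors, 8 passed the filter on low counts, and none of these 8 passed edgeR's quasi-likelihood test in any of the 6 comparisons between groups at an adjusted p under 0.05. DESeq2 also called none of them. From naive to demyelinated brain, where 18 of 28 myelin genes fell and 1 (Trf, transferrin) rose, with a median log2 change over the list of -1.11, the fitted changes of the 8 factors lay between -0.37 (Sox10) and 0.46 (Olig2). Over all 12423 genes tested, 2.0% passed in that comparison. From demyelination to remyelination 15 myelin genes rose and the background was 0.386%, from naive to remyelination it was 0.628%, between the knockout and control remyelination groups 0.0483%, between knockout remyelination and demyelination 0.604%, and between knockout remyelination and naive 3.24%. With 8 genes and backgrounds this low, 0 called members is close to the share among all genes. In bulk tissue fewer cells of a type and less RNA per cell cannot be told apart, and this holds for every value below.

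At an unadjusted p under 0.05, 2 of the 8 factors passed between demyelination and naive (Olig1 lower, Olig2 higher) where 13.3% of all genes did. Sox10 alone passed between remyelination and demyelination, against 6.65% of all genes. None passed between remyelination and naive, against 10.4%, or between the knockout and control remyelination groups, against 7.49%. Between knockout remyelination and demyelination 3 passed, Olig1, Sox10 and Myrf, all higher in the knockout group, against 10.7%, and between knockout remyelination and naive Olig2 alone passed, against 18.9%. Several of these comparisons share a group, so they are not separate pieces of evidence.

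**Figure D1:**
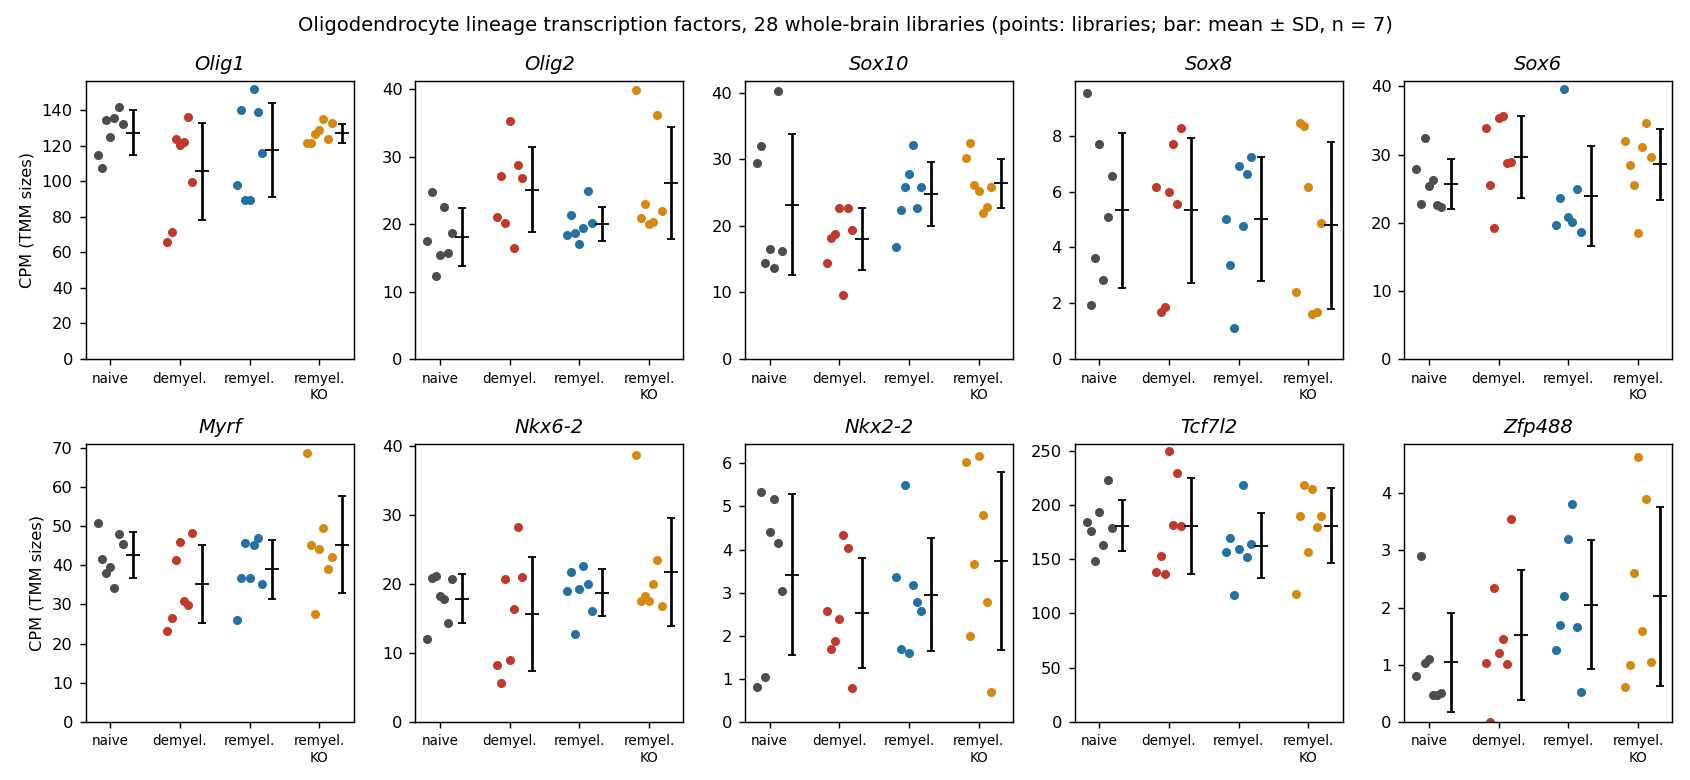
Level of each of the 10 factors in CPM (vertical axis, from 0) in every library of the 4 groups (points), with the group mean and SD (n = 7) as bars. The groups overlap for every factor, and single high libraries stand out for Nkx6-2 (38.7 CPM in knockout remyelination), Sox6 (39.6 CPM in remyelination) and Zfp488 (2.91 CPM in naive brain).

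Olig1 and Olig2, the neighbouring helix-loop-helix genes on mouse chromosome 16, had opposite signs in demyelinated brain, and neither difference passed the adjusted test. Olig1 ran from 107 to 142 CPM in naive brain with a median of 132, and from 65.8 to 136 with a median of 120 at demyelination. At remyelination it ran from 89.2 to 152 with a median of 116, and in knockout remyelination from 121 to 135 with a median of 126. Of the demyelination libraries, 3 lay below every naive library and the other 4 lay within the naive range. Only 1 of the 7 lay above the naive median. The fitted log2 change from naive was -0.27 (95% interval -0.54 to -0.00, adjusted p = 0.365). The 2 lowest demyelination libraries, 65.8 and 71.4 CPM, carried much of it: without both, a choice made after their low Olig1 was seen, the change was -0.09. The knockout remyelination group was the tightest for Olig1, with a mean of 127 ± 5.34 CPM (SD, n = 7) against 118 ± 26.3 in control remyelination. This difference in spread was not tested. Relative to the mean, the knockout group was also tighter than control remyelination for Sox10 and Sox6, and wider for the other factors. The fitted difference in Olig1 level between these groups was 0.11 (-0.16 to 0.37, edgeR, adjusted p = 0.886).

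Olig2, the factor that specifies the lineage, ran from 12.4 to 24.7 CPM in naive brain with a median of 17.5. At demyelination it ran from 16.4 to 35.3 with a median of 26.9, at remyelination from 17.1 to 24.9 with a median of 19.4, and in knockout remyelination from 20.1 to 39.9 with a median of 22.0. Of the demyelination libraries, 4 lay above every naive library, and 6 of 7 lay above the naive median. The fitted log2 change from naive to demyelination was 0.46 (0.08 to 0.84, adjusted p = 0.250), and that from naive to knockout remyelination was 0.50 (0.12 to 0.88, adjusted p = 0.131), the lowest adjusted p of any of the factors. All 7 knockout libraries lay above the naive median and above the control remyelination median, yet only 2 of them lay above the highest control remyelination library. The difference between the knockout and control remyelination groups was 0.37 (-0.00 to 0.74, adjusted p = 0.662), and 0.24 without knockout remyelination library 1, which held the highest Olig2 level.

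As a ratio within each library, Olig1 over Olig2 had a mean log2 of 2.77 ± 0.41 (SD, n = 7) in naive brain, 2.02 ± 0.53 at demyelination, 2.48 ± 0.24 at remyelination and 2.29 ± 0.44 in knockout remyelination. The demyelination group was lower than naive by a log2 difference of -0.75 ± 0.25 (SE), with 6 of its 7 libraries below the naive median. In a 2-sided exact permutation test this gave p = 0.0152, which did not hold over the 12 ratio tests run (adjusted p = 0.182). From demyelination to remyelination the ratio differed by 0.46 ± 0.22 (SE), and all 7 remyelination libraries lay above the demyelination median (exact permutation p = 0.0629, adjusted p = 0.341).

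Sox10, the factor that drives Myrf and the myelin genes, spread widely in naive brain, from 13.6 to 40.2 CPM with a median of 16.5. At demyelination it ran from 9.65 to 22.8 with a median of 18.8, at remyelination from 16.8 to 32.1 with a median of 25.8, and in knockout remyelination from 22.0 to 32.4 with a median of 25.9. The naive libraries fell into 3 at 29.4 CPM or above and 4 at 16.5 CPM or below, so the naive mean of 23.2 ± 10.6 CPM (SD, n = 7) describes few of them. The fitted log2 change from naive to demyelination was -0.37 (-0.80 to 0.06, adjusted p = 0.486), while the demyelination median was above the naive median. From demyelination to remyelination the change was 0.47 (0.04 to 0.89, adjusted p = 0.693), with 6 of 7 remyelination libraries above the demyelination median. From demyelination to knockout remyelination it was 0.55 (0.13 to 0.98, adjusted p = 0.299), with 7 of 7. The knockout and control remyelination groups differed by 0.09 (-0.32 to 0.50). Schwann cells also express Sox10, and their part in its level was not tested.

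Sox8, the close relative of Sox10, was counted at 2 to 21 per library and ranged from 1.10 to 9.54 CPM over all 28. Its group means lay within 1.11-fold of each other, from 4.80 to 5.33 CPM. The 95% interval of its log2 change from naive to demyelination, -0.78 to 0.90, spans 0.582-fold to 1.86-fold, so a true change within those bounds is compatible with these counts. An annotated antisense transcript overlaps Sox8, and Olig1, Sox6, Nkx6-2 and Nkx2-2 also overlap a gene on the opposite strand. No source used here states the strand setting of the counting, so reads of those partners cannot be told apart.

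Myrf, which binds the myelin genes directly and is needed to make and keep myelin, ran from 34.3 to 50.9 CPM in naive brain with a median of 41.7. At demyelination it ran from 23.1 to 48.2 with a median of 30.9, at remyelination from 26.0 to 47.1 with a median of 36.9, and in knockout remyelination from 27.7 to 68.8 with a median of 44.3. The groups overlapped, and 2 of 7 demyelination libraries lay above the naive median. The fitted log2 change from naive to demyelination was -0.27 (-0.61 to 0.07, adjusted p = 0.536). From demyelination to knockout remyelination it was 0.36 (0.02 to 0.69, adjusted p = 0.431), and 0.23 without knockout remyelination library 1, which held the highest Myrf level at 68.8 CPM. Myrf over Sox10 as a log2 ratio averaged 0.95 ± 0.49 (SD, n = 7) in naive brain, 0.93 ± 0.43 at demyelination, 0.63 ± 0.22 at remyelination and 0.73 ± 0.38 in knockout remyelination. Its 4 tests and the 4 of Sox8 over Sox10 did not pass; with Olig1 over Olig2, 0 of 12 ratio tests did.

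Nkx6-2, a homeobox factor of myelinating oligodendrocytes, ran from 11.9 to 21.1 CPM in naive brain with a median of 18.2. Its spread widened at demyelination, from 5.66 to 28.3 CPM with a median of 16.4, where the coefficient of variation was 53.2% against 19.9% in naive brain. The difference in spread was not tested. At remyelination it ran from 12.7 to 22.6 with a median of 19.2, and in knockout remyelination from 16.8 to 38.7 with a median of 18.3. The log2 difference between the knockout and control remyelination groups was 0.19 (-0.28 to 0.66, adjusted p = 0.888), and it was -0.00 without knockout remyelination library 1. That library was the highest of its group for Olig2, Myrf and Nkx6-2 and the lowest for Olig1, Tcf7l2 and Zfp488. Without demyelination libraries 1 and 2, the lowest of their group for Nkx6-2 at 8.22 and 5.66 CPM, the change from naive to demyelination was 0.09 in place of -0.18.

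Sox6, which keeps precursors from differentiating, ran from 22.2 to 32.5 CPM in naive brain with a median of 25.3, and from 19.3 to 35.7 at demyelination with a median of 28.8. At remyelination it ran from 18.6 to 39.6 with a median of 20.8, and in knockout remyelination from 18.6 to 34.6 with a median of 29.7. Library 3 of the remyelination group, at 39.6 CPM, lay far from the next at 24.9. From demyelination to remyelination the fitted log2 change was -0.32 (-0.65 to 0.02, adjusted p = 0.783), and -0.47 without that library (adjusted p = 0.436). Interneurons also express Sox6, and the summed level of 14 interneuron markers ran from 1177 to 1319 CPM in naive brain, 1125 to 1300 at demyelination, 1094 to 1258 at remyelination and 978 to 1350 in knockout remyelination. Their part in the Sox6 level was not tested.

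Tcf7l2, the Wnt effector, had group means of 181 ± 23.5, 181 ± 44.2, 162 ± 30.03 and 181 ± 34.9 CPM (SD, n = 7) in the order naive, demyelination, remyelination and knockout remyelination. Its log2 change from naive to demyelination was -0.00 with a 95% interval of -0.27 to 0.27, the second narrowest of the 8 after that of Olig1. Thalamic and habenular neurons also express Tcf7l2, and the summed level of 16 of their markers had a median of 1390 CPM in naive brain, 1245 at demyelination, 1207 at remyelination and 1216 in knockout remyelination. Of the 15 of these markers tested, 1 (Ntng1) fell from naive to demyelination, which is 6.67% against 2.0% of all genes. From naive to remyelination 1 (Rora) fell, 6.67% against 0.628%. From naive to knockout remyelination 2 (Slc17a6 and Rora) fell, 13.3% against 3.24%. At an unadjusted p under 0.05 by edgeR, 4 (26.7% against 13.3%), 4 (26.7% against 10.4%) and 3 (20% against 18.9%) passed in the same order, all lower than naive. Their part in the Tcf7l2 level was not tested.

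Nkx2-2, which acts in the precursor as it begins to differentiate, and Zfp488, a zinc finger co-regulator of Olig2, did not pass the low-count filter. Nkx2-2 totalled 48 counts over the 7 naive libraries, 35 at demyelination, 46 at remyelination and 52 in knockout remyelination, with means of 3.42, 2.53, 2.96 and 3.74 CPM. Zfp488 totalled 14, 23, 34 and 31 counts in the same order, with means of 1.04, 1.51, 2.05 and 2.20 CPM and 1 demyelination library at 0. In the fit without the filter the Zfp488 log2 difference was 0.95 between remyelination and naive (adjusted p = 0.640) and 1.02 between knockout remyelination and naive (adjusted p = 0.471). Single libraries held at most 12 counts of either gene, and no difference passed in that fit.

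The order of the 4 group means differed from factor to factor. Demyelination was lowest for Olig1, Sox10, Myrf, Nkx6-2 and Nkx2-2, and it was highest for Sox6 and, level with naive, for Sox8. Knockout remyelination was highest for Olig2, Sox10, Myrf, Nkx6-2, Nkx2-2 and Zfp488, and lowest for Sox8. For Tcf7l2 remyelination was lowest and the other 3 groups were level. The highest mean was between 1.11-fold (Sox8) and 1.47-fold (Sox10) above the lowest among the 8 tested factors. No neighbouring groups in any of these 8 orders differed by the adjusted test.

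**Figure D2:**
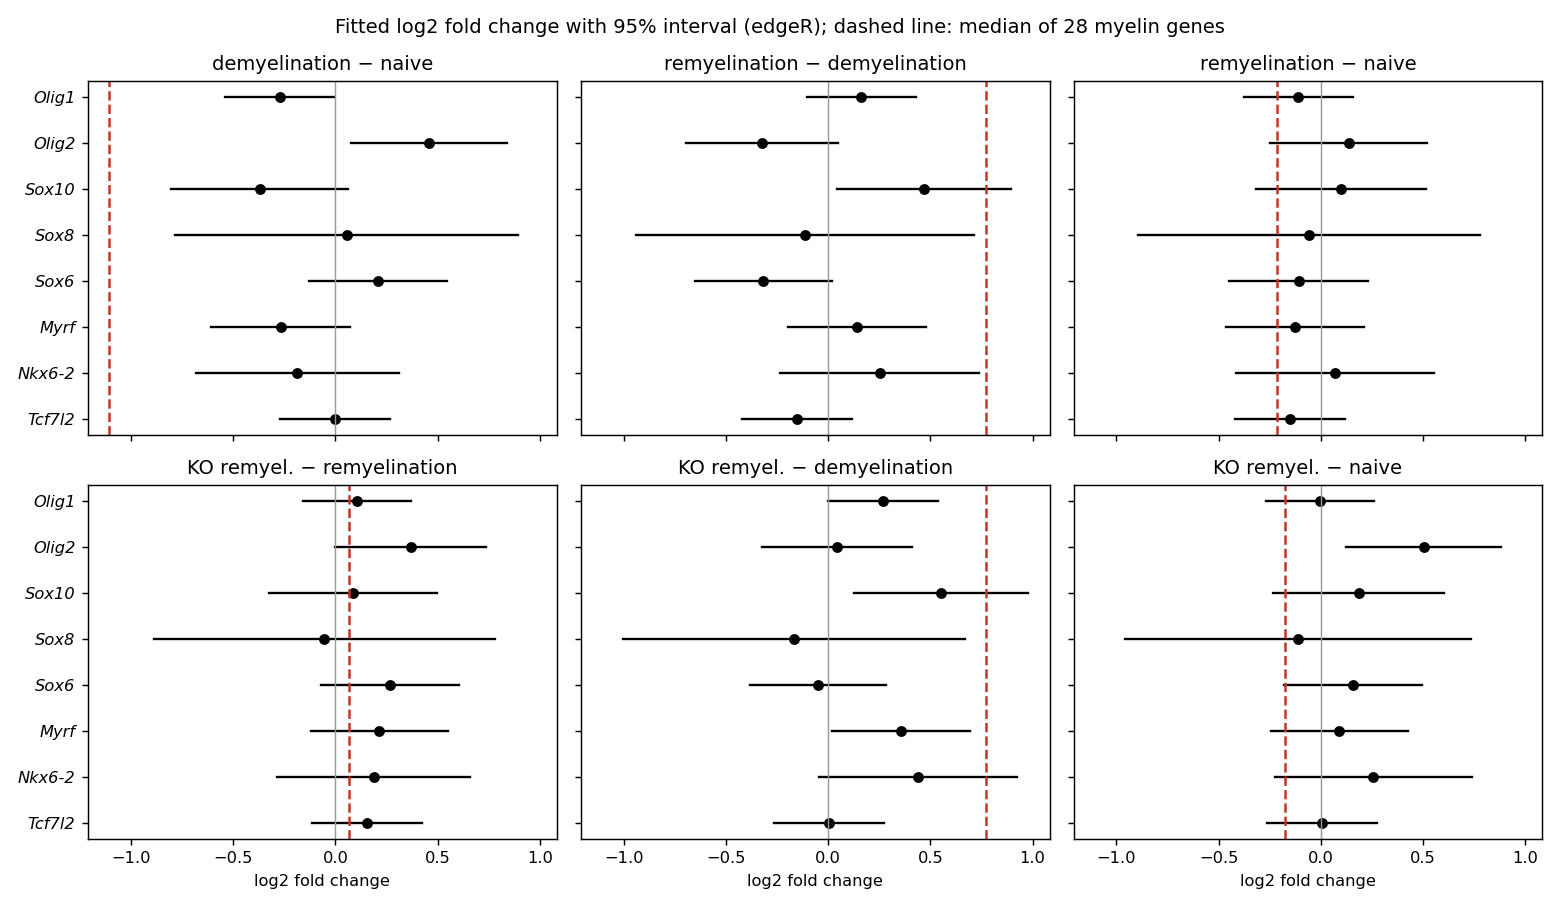
Fitted log2 fold change of the 8 tested factors with its 95% interval (horizontal axis) in the 6 comparisons, with the median log2 change of the 28 myelin genes as a dashed line. The intervals of all 8 factors lie above the myelin median of -1.11 from naive to demyelination. That of Sox10 holds the myelin median of 0.77 from demyelination to remyelination.

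The factors were next set against the myelin genes of the same library, a comparison chosen after the data had been seen. For each library the mean log2(CPM + 1) of 28 myelin genes was subtracted from that of the factor. The summed level of these genes had a median of 8490 CPM in naive brain, 4393 at demyelination, 7970 at remyelination and 8452 in knockout remyelination. Mbp, the myelin basic protein gene, fell from 3060 ± 319 to 1592 ± 123 CPM (SD, n = 7) from naive to demyelination, a log2 change of -0.94 ± 0.10 (SE). Since the myelin genes themselves moved, the difference shows unequal change and not that a factor rose.

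Olig2, Sox6 and Tcf7l2 stood higher relative to myelin at demyelination in every library. Olig2 ran from -2.62 to -1.50 in naive brain with a median of -1.84, and from -1.43 to 0.06 at demyelination with a median of -0.44, with no overlap. The difference was 1.32 ± 0.22 (SE) on the log2 scale, and from demyelination to remyelination it was -0.99 ± 0.19. Sox6 ran from -1.61 to -1.10 in naive brain and from -0.72 to 0.06 at demyelination, again with no overlap, a difference of 1.06 ± 0.12, followed by -1.02 ± 0.19 to remyelination. Tcf7l2 differed by 0.85 ± 0.18 and then by -0.84 ± 0.16. In CPM, before the myelin genes were subtracted, the naive and demyelination libraries of each of these factors overlapped. The share of all genes without overlap relative to myelin was not computed. In 2-sided exact permutation tests all 3 gave p = 0.000583 from naive to demyelination, the smallest that 7 against 7 libraries allow, and an adjusted p of 0.00233 over the 16 tests run. Tcf7l2 reached this p with a fitted log2 change of its own of -0.00. A gene that stays level can thus pass through the fall of the myelin genes alone. The share of all genes that would pass this test was not computed. From demyelination to remyelination the adjusted p by the same exact test was 0.00311 for Olig2 and Sox6 and 0.00233 for Tcf7l2.

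For the other 5 factors the same difference was smaller or less certain. Olig1 differed by 0.57 ± 0.18 (SE) from naive to demyelination (exact permutation test, adjusted p = 0.0266) and by -0.53 ± 0.20 to remyelination (exact, adjusted p = 0.0497). Myrf differed by 0.57 ± 0.22 (exact, adjusted p = 0.0497) and by -0.54 ± 0.23 (exact, adjusted p = 0.0671). The Myrf call was lost, with an adjusted p of up to 0.0898, without any 1 of demyelination libraries 3, 4, 6 and 7 or naive libraries 2 to 7. The Olig1 call to remyelination was lost, with an adjusted p of up to 0.0891, without any 1 of demyelination libraries 3, 4, 6 and 7 or remyelination libraries 1, 2, 3, 4 and 7. The Olig1 call from naive was lost without naive library 2 (adjusted p = 0.0524) or 3 (adjusted p = 0.0506). Sox10 differed by 0.59 ± 0.32 and -0.24 ± 0.24, Sox8 by 0.86 ± 0.39 and -0.76 ± 0.37, and Nkx6-2 by 0.54 ± 0.32 and -0.30 ± 0.32, and these 6 tests did not pass (exact, adjusted p between 0.0746 and 0.363). Whether Olig2, Sox6 and Tcf7l2 differ in this from Sox10, Sox8 and Nkx6-2 was not tested.

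**Figure D3:**
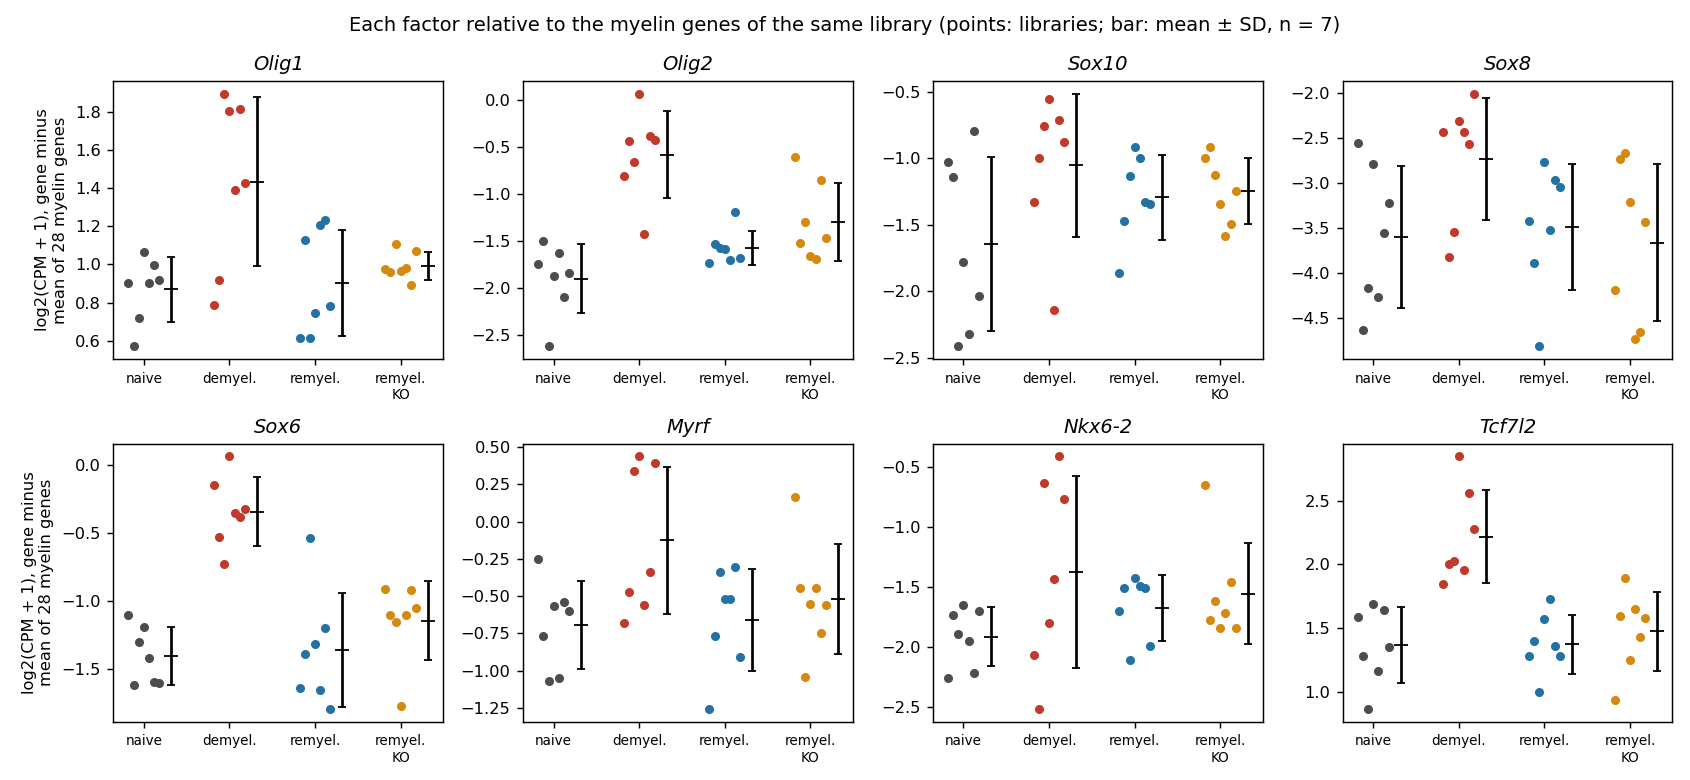
Level of each of the 8 tested factors relative to the myelin genes of the same library, as log2(CPM + 1) of the factor minus the mean of 28 myelin genes (vertical axis), in each library (points) with the group mean and SD (n = 7). The demyelination libraries of Olig2, Sox6 and Tcf7l2 lie above all naive libraries, whereas those of Sox10 and Nkx6-2 overlap the naive ones. The fall of the myelin genes at demyelination enters every value.

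Variation between libraries of the same group was examined after the data had been seen, as each library's deviation from its group mean. Olig1 varied with the mean of the oligodendrocyte precursor markers over the 28 libraries (Pearson r = 0.55, permutation p = 0.00185; Spearman rho = 0.54, permutation p = 0.00238). The adjusted p was 0.0370 over 40 relations between a factor and a marker list, and r was 0.50 without the 2 libraries farthest from the median of the markers. Within the groups r was 0.56 in naive, 0.84 in demyelination, 0.55 in remyelination and 0.03 in knockout remyelination, and the difference between groups was not tested. Sox10 varied inversely with the interneuron markers (r = -0.60, permutation p = 0.00066; rho = -0.57, permutation p = 0.00228; adjusted p = 0.0264), with r = -0.55 without the 2 farthest libraries and between -0.88 and -0.49 within the 4 groups. The other 38 relations did not pass, Tcf7l2 with the thalamic markers (r = 0.08) and Sox6 with the interneuron markers (r = -0.09) among them. Of the 28 pairs of factors none passed; Sox10 and Myrf had r = 0.44 (permutation p = 0.0074, adjusted p = 0.175). All values come from the same libraries and share their scaling.

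**Figure D4:**
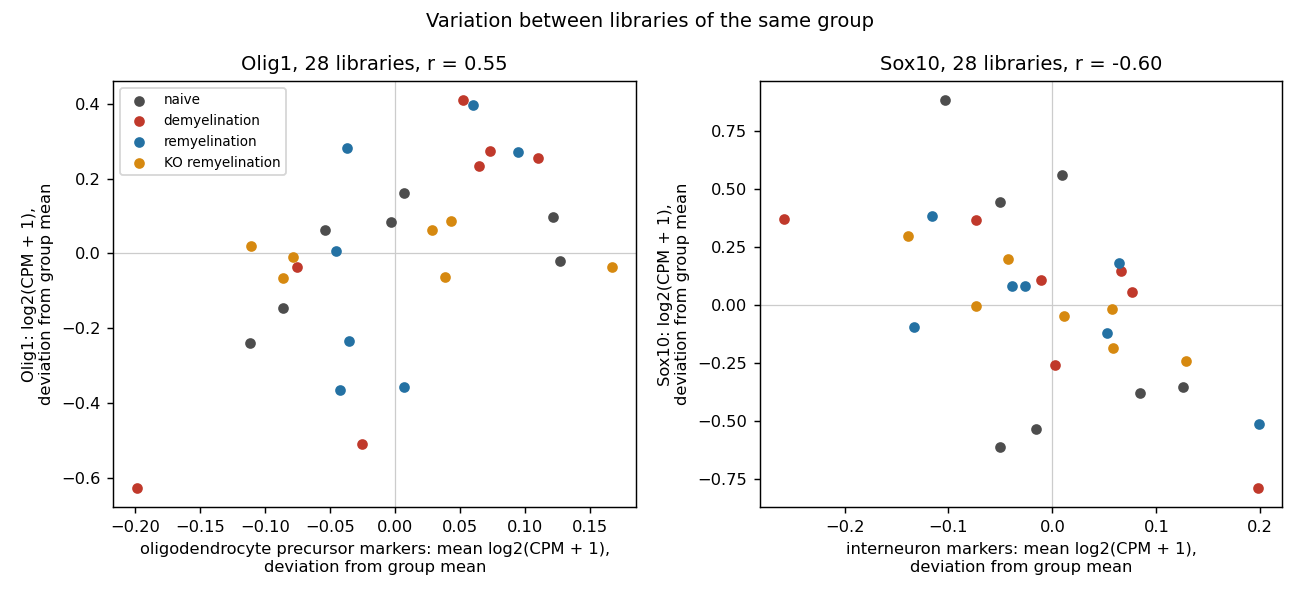
Deviation of Olig1 (left) and Sox10 (right) from the group mean of log2(CPM + 1), on the vertical axis, against the deviation of the mean of the oligodendrocyte precursor and the interneuron markers, on the horizontal axis, in 28 libraries coloured by group. Olig1 rises with the precursor markers (r = 0.55) and Sox10 falls with the interneuron markers (r = -0.60).

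A wider list of lineage regulators held 57 genes. Of these, 46 were tested, and 1 fell from naive to demyelination, which is 2.17% against 2.0% of all genes. From naive to knockout remyelination 4 fell, which is 8.70% against 3.24% of all genes. None rose in either, and none passed in the other 4 comparisons. At an unadjusted p under 0.05 by edgeR, 9 of 46 (19.6%) passed from naive to demyelination against 13.3% of all genes, and 10 of 46 (21.7%) from naive to knockout remyelination against 18.9%. In the other 4 comparisons 4 to 10 did, against 6.65% to 10.7% of all genes. Sox11, an HMG-box factor of immature neurons and precursors, fell from 96.9 ± 12.5 to 73.6 ± 10.4 CPM (SD, n = 7) at demyelination, a log2 change of -0.39 ± 0.11 (SE, adjusted p = 0.0380). From naive to knockout remyelination Hdac2, a histone deacetylase, fell by 0.85 on the log2 scale (edgeR, adjusted p = 0.00448). Sox11 fell by 0.48, Tcf4, a dimer partner of Olig2, by 0.38, and Nfib, a glial factor, by 0.36. The median log2 change over the 46 was -0.09 from naive to demyelination, against -0.01 over all genes tested.

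Of 20 Wnt pathway genes, the pathway in which Tcf7l2 acts, 15 were tested, and 2 passed from naive to demyelination, which is 13.3% against 2.0% of all genes. Ccnd1, a cyclin and Wnt target, rose from naive to demyelination by a log2 change of 0.48 ± 0.12 (SE, adjusted p = 0.0174), and Apc, part of the complex that destroys beta-catenin, fell by 0.34 (adjusted p = 0.0293). Ccnd1 was lower in knockout remyelination than at demyelination, with a log2 difference of -0.51 ± 0.12 (adjusted p = 0.0279), and Apc was lower in knockout remyelination than in naive brain (-0.31, adjusted p = 0.0487). No other Wnt gene passed in any comparison by edgeR, and 3 of the 15 had an unadjusted p under 0.05 from naive to demyelination, against 13.3% of all genes. The median log2 change over the 15 was -0.06 from naive to demyelination.

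Markers of the stages these factors act in were counted in the same way. Of 14 precursor markers tested, 1 passed in 1 comparison, which over so few genes is close to the share among all genes (3.24%): Pcdh15, a protocadherin, fell by 0.81 on the log2 scale from naive to knockout remyelination (adjusted p = 0.0206). Between knockout remyelination and demyelination 3 precursor markers (21.4%) had an unadjusted p under 0.05 by edgeR, all lower, against 10.7% of all genes. In the other comparisons 0 to 2 did, against 6.65% to 18.9%. Their median log2 change was -0.21 from naive to knockout remyelination and -0.19 from control to knockout remyelination. Of 14 markers of newly formed oligodendrocytes tested, none passed in any comparison by edgeR. At an unadjusted p under 0.05, 8 of these 14 (57.1%) passed from naive to demyelination, 5 higher and 3 lower, against 13.3% of all genes, and 1 to 4 did in the other comparisons, against 6.65% to 18.9%. From naive to demyelination Bcas1, a marker of cells that begin to myelinate, had a log2 change of 0.39 (adjusted p = 0.183), and Enpp6, an enzyme of newly formed oligodendrocytes, one of -0.54 (adjusted p = 0.270). The median log2 change in that comparison was -0.10 over the precursor markers and -0.01 over the newly formed markers. Of 10 microglia markers, 7 rose from naive to demyelination (70% against 2.0% of all genes), with a median log2 change of 1.11. Among 10 astrocyte markers 1 rose (10%), with a median of 0.19. No marker of neurons (10 tested), of endothelial and mural cells (11 tested) or of Schwann, choroid plexus and meningeal cells (8 tested) passed in that comparison. At an unadjusted p under 0.05 by edgeR, 0, 3 (27.3%, 2 higher and 1 lower) and 3 (37.5%, 1 higher and 2 lower) did, against 13.3% of all genes. The part of these other cells in the levels of the 10 factors was not tested.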

How the data were processed

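RNA from whole brain was extracted with TRIzol and made into QuantSeq 3′ FWD libraries, per the labels' protocols. The authors deposited RSEM expected counts per gene; FastQC, cutadapt, STAR, RSEM, edgeR and the build GRCm39 are named in the submitters' processing notes, and the strand setting is not given in the sources used here. Between 96.6% and 97.7% of each library's deposited expected counts were whole within 0.005, and all were rounded. Groups came from the sample labels. The 28 libraries were fitted together in edgeR 4.0.16 (R 4.3.3; TMM sizes, filterByExpr, quasi-likelihood, 1 mean per group). P-values were adjusted by Benjamini-Hochberg over 12423 genes, with a threshold of 0.05, and 95% intervals are Wald intervals. The fit was tested on simulated data. Ratios and levels relative to myelin used log2(CPM + 1), a pseudocount of 1, and exact permutation tests, adjusted within each family. Correlations were permuted 100000 times within groups. Overlapping genes were read from GENCODE M21. The members and all gene lists were chosen with earlier results of these data known, so they are no independent evidence of direction. Alternatives were other scalings, no filter, DESeq2 1.42.0, only the groups compared, a replicate block, and left-out libraries. The rule for naming genes was all 10 members in every comparison, and the listed genes that passed; Mbp, Bcas1 and Enpp6 were named after their values were seen. No sequence is shown.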

Additional observations from a re-analysis of the deposited data

Results flagged for a closer look

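Of 40 groups of 7 libraries (10 factors in 4 groups), 3 held a library far from the other 6, and chance flags about 1 in 20 groups. Sox6 was at 39.6 CPM in remyelination library 3, where the next highest was 24.9. Nkx6-2 was at 38.7 CPM in knockout remyelination library 1, where the next highest was 23.4. Zfp488 was at 2.91 CPM in naive library 2, from 6 counts, where the next highest was 1.10.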

How the results depend on the processing

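None of the 8 tested factors was called in any of the 6 comparisons under any alternative run (other scalings, no filter, DESeq2, only the groups compared, a replicate block, libraries left out). Fold changes near 0 changed sign in 81 of 1032 alternatives, none of them called. The sign changed with library totals for Tcf7l2 from naive to demyelination (0.039) and from demyelination to knockout remyelination (-0.031), and for Olig1 from naive to knockout remyelination (0.0059). That Olig1 value was 0.00063 with RLE size factors, 0.0014 with no filter, 0.0053 with the block and 0.00070 with DESeq2. Tcf7l2 from naive to demyelination was 0.0038 with no filter and 0.0033 without knockout library 1 and naive library 1. Sox8 between the remyelination groups was 0.012 with the block. Without knockout library 1 and naive library 1, Sox8 was 0.11 from naive to remyelination, 0.049 between the remyelination groups and 0.16 from naive to knockout remyelination, Nkx6-2 was -0.0022 between the remyelination groups, and Olig2 was -0.082 from demyelination to knockout remyelination. Without demyelination libraries 1 and 2, left out because both had low Olig1, Nkx6-2 was 0.089 and Tcf7l2 0.10 from naive to demyelination, Olig1 was -0.023, Myrf -0.013 and Nkx6-2 -0.024 from demyelination to remyelination, Tcf7l2 was -0.10 from demyelination to knockout remyelination, and the log2 ratio of Myrf over Sox10 was 0.11 from naive to demyelination. With 1 library left out at a time, Sox8 ranged from -0.10 to 0.23 (demyelination against naive), -0.26 to 0.049 (remyelination against demyelination), -0.21 to 0.12 (remyelination against naive), -0.24 to 0.11 (knockout against control remyelination), -0.36 to 0.0013 (knockout remyelination against demyelination) and -0.30 to 0.070 (knockout remyelination against naive). Likewise Tcf7l2 ranged from -0.093 to 0.056 (demyelination against naive), -0.052 to 0.097 (knockout remyelination against demyelination) and -0.042 to 0.085 (knockout remyelination against naive). Against naive, knockout remyelination ranged from -0.041 to 0.024 for Olig1 and -0.031 to 0.18 for Myrf, and remyelination from -0.0011 to 0.29 for Sox10. Against demyelination, knockout remyelination ranged from -0.080 to 0.14 for Olig2 and -0.13 to 0.031 for Sox6. Nkx6-2 between the remyelination groups ranged from -0.00069 to 0.25. The log2 ratio of Myrf over Sox10 ranged from -0.14 to 0.069 (demyelination against naive) and that of Sox8 over Sox10 from -0.50 to 0.0022 (remyelination against naive). Relative to the myelin genes, Olig2 and Tcf7l2 kept both calls under every alternative, and Sox6 lost 1, from demyelination to remyelination under the replicate block (-1.02, adjusted p = 0.0556 by an exact sign-flip test). The block also ended the calls of Olig1 (0.57 and -0.53) and of Myrf from naive (0.57), and gave one for Sox8 in both comparisons (0.86 and -0.76). Without knockout library 1 and naive library 1, Sox8 passed from naive (1.04). Without demyelination libraries 1 and 2, Sox8 (1.02 and -0.91) and Nkx6-2 (0.91 and -0.67) passed in both comparisons and Myrf to remyelination (-0.72). With 1 library left out, the ranges from naive to demyelination were 0.49 to 0.67 for Olig1, 0.46 to 0.77 for Sox10, 0.69 to 1.05 for Sox8, 0.48 to 0.66 for Myrf and 0.38 to 0.73 for Nkx6-2. To remyelination they were -0.64 to -0.45 for Olig1, -0.42 to -0.15 for Sox10, -0.94 to -0.54 for Sox8, -0.63 to -0.44 for Myrf and -0.49 to -0.14 for Nkx6-2. Of the uncalled tests, Sox10 passed without demyelination library 5, Sox8 without demyelination library 2 (both comparisons) or naive library 1 (from naive), Nkx6-2 from naive without demyelination library 2, and Myrf to remyelination without demyelination library 1, 2 or 5. Over all genes, the count called between knockout remyelination and naive (403) was 243 with library totals, 608 with the block, 643 without knockout library 1 and naive library 1, and 145 to 734 with 1 library left out. Between remyelination and naive (78) it was 122 with no filter, 147 with the block, 132 with DESeq2 and 56 to 156 with 1 left out. Between knockout and control remyelination (6) it was 28 with no filter and 13 with DESeq2, between knockout remyelination and demyelination (75) 163 with no filter and 49 to 94 with 1 left out, and between remyelination and demyelination (48) 73 with DESeq2. The cause of these changes was not tested. The labels do not say what a replicate number marks, and the numbers were not taken to pair the samples: deviations of same-numbered libraries correlated over 0.1 in 5 of 42 pairs, against 19 of 252 pairs with other numbers. The median correlation was 0.035 for same-numbered pairs and -0.005 for the others. Of 28 libraries, 9 correlated best with their own number, a hint from the data and not from the design. The number expected without pairing was not computed. Depth limits Sox8, Nkx2-2 and Zfp488 most.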
